A study of Mus musculus with 16 samples.

Results

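The transcripts described here are 238 mouse genes that still carry, in the deposited table, a RIKEN clone name of the adult testis series to which 1700012A03Rik belongs. They were chosen by name and by level. Of 342 rows with such a name, 15 had 0 counts in every library and 241 reached at least 1 CPM (the count of a gene scaled to the library's total over genes) in at least 8 of 16 libraries. Leaving out 1700112J05Rik, 1700026D11Rik and 1700017J07Rik by name gave the 238 members, out of 24062 gene rows in all. The level of the members is therefore a description and was not tested. Members at the edge of the rule were 7 clones with exactly 8 libraries at 1 CPM, whose medians over 16 libraries ran from 0.841 to 1.49 CPM. Just outside it were 8 clones with 7 such libraries and medians from 0 to 0.922 CPM.

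The libraries were made from spermatozoa of 16 male mice. In 8 males the diet was a modified high-fat, high-calorie diet (HFD), and in the other 8 it was the control diet made to match it (CD). All males were 3 weeks old when the diets began and were fed for 9 weeks, after which motile sperm were isolated, sonicated in lysis buffer and extracted. A DNase step and whole-transcriptome amplification as cDNA, starting from 2 ng of RNA per sample, came before sequencing. The labels name no strain, no batch and no step that removes other cells beyond the isolation of motile sperm. Each diet is described as 8 mice, so the spread between libraries of 1 diet was read as the spread between animals.

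RIKEN clone names were given to full-length mouse cDNAs that had no known gene at the time, and the opening digits name the cDNA library, here one from adult testis. Testis makes an unusually wide set of transcripts, many of them noncoding or coding for small proteins of the sperm flagellum and acrosome, and most are made in meiotic spermatocytes and in the round spermatids that follow. Mature sperm make almost no new RNA and carry what is left of the spermatid's, while the epididymis, where sperm mature and are stored, makes abundant secretory transcripts of its own.

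The shallowest library was HFD 4, with 1882555 gene counts, and the deepest was CD 2, with 7783981, so that 1 count was worth between 0.128 and 0.531 CPM, and between 211 and 238 members were detected in a library. The libraries HFD 4 and HFD 8 stood apart from the other 14, and each result below that rests on them is given with and without them. Their summed epididymal markers (45 genes in the table, led by secretory genes of that duct such as Crisp1 and Gpx5) were 16508 and 13339 CPM, against 45618 to 110065 CPM in the other 14. Their summed late spermatid markers (45 genes, among them the protamines Prm1 and Prm2, which pack sperm DNA) were 29212 and 63589 CPM, against 2595 to 14918 CPM. Reads in no gene were 76.1% of the column of HFD 4 and 74.96% of that of HFD 8, against 58.0% to 67.9% in the other 14, and reads in genes were 8.02% and 9.16% against 10.3% to 20.1%; the part of this in the members' levels was not tested. In each of the other 14 libraries the epididymal sum was above the late spermatid sum, although the labels name sperm. Leukocyte markers (19 genes, none at 0 in all libraries) reached a sum of 1155 CPM in the first of these libraries, 1768 CPM in the second and 323 to 1184 CPM in the rest. Markers of stroma, endothelium and muscle (16 genes, none at 0 in all libraries) summed to 1352 and 1177 CPM against 351 to 1010 CPM. Sertoli cell markers (12 genes, of which Amh and Fshr were at 0 in all libraries, and including Clu, which the epididymis also makes) summed to 386 and 365 CPM against 1095 to 10979 CPM. Leydig cell markers (8 genes, none at 0 in all libraries) summed to 26.0 and 61.4 CPM against 46.9 to 146 CPM. In bulk RNA, fewer cells of a type and less RNA per cell cannot be told apart.

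By RefSeq, 120 members were protein-coding genes, 110 were long noncoding RNAs and 8 were pseudogenes. Long noncoding RNAs made up 46.2% of members and 4.33% of the other 14650 RefSeq-matched genes that passed the same level rule. Both classes were compact. The median exon length was 1.26 kb in members with a GENCODE model and 4.26 kb in the other genes, and the median protein was 217 against 470 amino acids. Of the 238 names, 45 now have another RefSeq symbol, a share of 18.9% against 5.17% of the other genes, and 7 of the 45 are cilia and flagella associated proteins (Cfap genes). The coding members held 67.9% of the summed member CPM and the long noncoding ones 25.7%.

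RefSeq promoter windows (build GRCm38.p6, 250 bases before and 50 bases from the start of the gene on) were found for 194 of 238 members. MYB family letters (TAACTG and the variant TAACGG, or CAACTG and the variant CAACGG, on either strand) were present in 79 of them, which is 40.7%, against 26.0% of windows of the other genes and 28.3% of all 32851 windows. MYBL1, of this family, is a known regulator of male meiotic genes. The RFX letters GTTGCCATG, on either strand, were present in 7 (3.61%), against 0.668% of the other genes' windows and 0.773% of all windows. By class they were in 6 of 103 coding members' windows (5.83%), against 0.664% for other coding genes. In long noncoding members they were in 1 of 91 (1.10%), against 0.768% for other long noncoding genes. RFX2, of this family, is a known regulator of spermatid differentiation and of cilium genes. The cyclic AMP response element TGACGTCA, the site of the spermatid factor CREM, was present in 5 (2.58%), against 3.03% and 1.79%. It was in 1 of 103 coding members' windows (0.971%, against 3.01% for other coding genes). In long noncoding members it was in 4 of 91 (4.40%, against 3.26% for other long noncoding genes). TATAAA was present in 22 (11.3%), against 7.94% and 13.6%. The members' windows had a median GC content of 51.7% and 6 CpG dinucleotides, and those of the other genes 60% and 19. A match is a description of letters and was not tested as a binding site.

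The 7 windows with RFX letters are shown because the share of members with them stood furthest, as a ratio, from the share of other genes. Each line runs 5′ to 3′ on the gene's strand, with the RFX letters, or their reverse complement CATGGCAAC, in capitals and 30 bases on each side.
1700001K19Rik: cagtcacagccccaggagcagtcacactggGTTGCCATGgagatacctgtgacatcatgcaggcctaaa
1700010I14Rik: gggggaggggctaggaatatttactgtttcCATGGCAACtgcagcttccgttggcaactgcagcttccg
1700026D08Rik (Cfap161): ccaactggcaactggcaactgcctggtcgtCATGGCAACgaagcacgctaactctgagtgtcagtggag
1700034J05Rik: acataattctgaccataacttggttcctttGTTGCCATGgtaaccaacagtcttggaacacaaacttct
1700042O10Rik: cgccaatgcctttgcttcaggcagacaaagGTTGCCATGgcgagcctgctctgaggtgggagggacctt
1700109H08Rik: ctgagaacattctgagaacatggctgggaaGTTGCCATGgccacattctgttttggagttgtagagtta
1700125H20Rik: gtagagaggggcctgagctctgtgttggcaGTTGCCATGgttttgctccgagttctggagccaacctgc
All 7 matches began between 68 and 20 bases before the start of the gene, which is counted as position 0. The window of Cfap161 lies at chr7:83794843-83794911 on the minus strand and that of 1700109H08Rik at chr5:3571618-3571686 on the plus strand.

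Whole windows of 300 bases are shown for 3 members because they recur in the results: 1700010I14Rik, which holds 7 MYB matches beside its RFX match, 1700029F12Rik, which holds 3 MYB matches, and 1700020I14Rik, a member that differed from most in the way it varied. They lie at chr17:8988083-8988382 (plus strand), chr13:97034313-97034612 (minus strand) and chr2:119594046-119594345 (plus strand). Capitals mark MYB and RFX letters on either strand.
1700010I14Rik: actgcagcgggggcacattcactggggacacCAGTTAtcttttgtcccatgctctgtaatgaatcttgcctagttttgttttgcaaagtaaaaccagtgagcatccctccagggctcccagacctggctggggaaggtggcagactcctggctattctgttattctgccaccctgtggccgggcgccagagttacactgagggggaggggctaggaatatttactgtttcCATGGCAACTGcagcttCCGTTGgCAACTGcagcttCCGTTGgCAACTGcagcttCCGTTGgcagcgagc
1700029F12Rik: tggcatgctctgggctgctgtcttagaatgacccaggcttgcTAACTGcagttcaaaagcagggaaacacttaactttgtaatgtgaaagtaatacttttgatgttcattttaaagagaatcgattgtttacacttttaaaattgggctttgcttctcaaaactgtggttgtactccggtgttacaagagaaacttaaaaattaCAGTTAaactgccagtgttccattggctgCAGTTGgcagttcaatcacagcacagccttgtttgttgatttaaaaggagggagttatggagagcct
1700020I14Rik (Oip5os1): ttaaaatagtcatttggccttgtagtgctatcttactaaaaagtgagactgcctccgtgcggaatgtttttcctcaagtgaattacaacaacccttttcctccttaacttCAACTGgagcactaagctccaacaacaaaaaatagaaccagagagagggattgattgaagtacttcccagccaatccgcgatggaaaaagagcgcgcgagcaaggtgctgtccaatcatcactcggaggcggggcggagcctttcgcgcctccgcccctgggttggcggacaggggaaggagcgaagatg
In 1700010I14Rik the RFX match, at positions -20 to -12, overlaps a MYB match at positions -15 to -10, and the following MYB matches come from a short stretch repeated in tandem across the start of the gene. In Oip5os1, the long noncoding RNA also known as Cyrano, the single MYB match lies at positions -140 to -135.

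As a group the members took a small share of the gene counts in 14 libraries and a larger one in 2. Library HFD 4 had a summed level of 26287 CPM, and library HFD 8 one of 25167 CPM. In the other 6 HFD libraries it ran from 2189 to 5031 CPM and in the 8 CD libraries from 1910 to 7405 CPM, so these ranges overlapped. The mean was 9439 ± 10107 CPM in HFD and 4049 ± 1927 CPM in CD (SD, n = 8 each). As a share of gene counts, members took 2.63% and 2.52% in HFD 4 and HFD 8 and 0.191% to 0.741% elsewhere. The 281 clones of the other testis series that passed the level rule moved alike, with 18465 and 19304 CPM against 2237 to 6432 CPM. The 490 clones of all other RIKEN series summed to 12889 and 13194 CPM against 9175 to 11408 CPM, and the 7 clones of the epididymis series to 50.5 and 41.8 CPM against 13.6 to 62.0 CPM. These sums do not show the typical clone. The median clone of all other series stood at 0.474 times the median of the other 14 libraries in HFD 4 and at 0.674 times in HFD 8. For the epididymis series these ratios were 0.238 and 0.808, and for the other testis series 6.27 and 5.82.

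**Figure D1:**
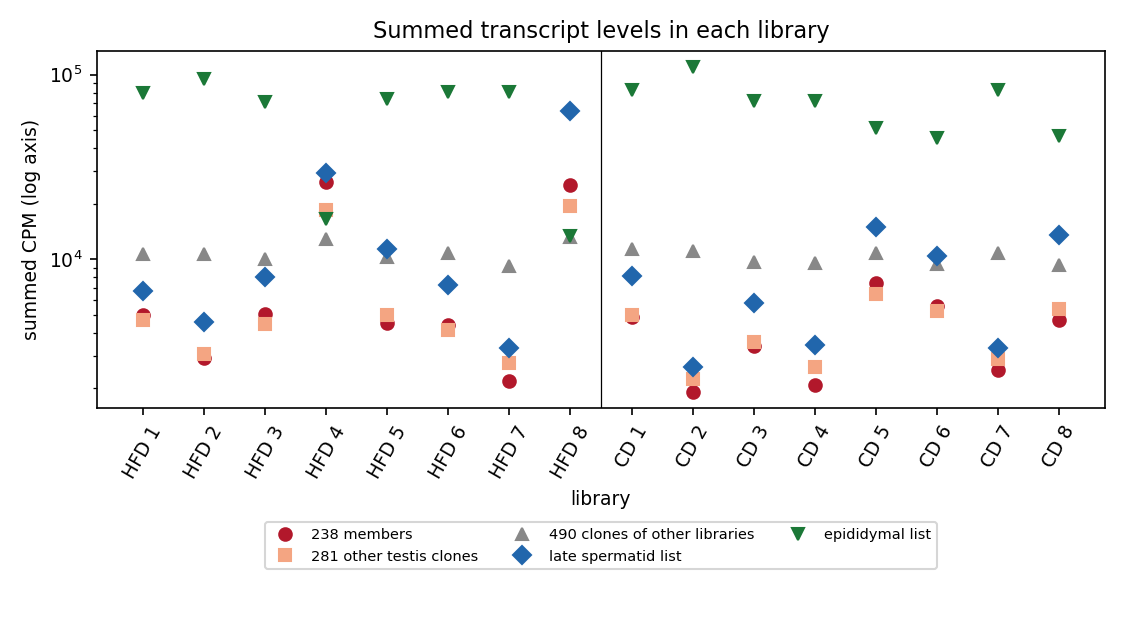
Summed CPM (log axis) in each of the 16 libraries for the members, the other testis clones, clones of other source libraries, and the late spermatid and epididymal marker lists; each point is 1 library and the vertical line parts the diets. The members' points for HFD 4 (26287 CPM) and HFD 8 (25167 CPM) lie above the highest of the other 14 (7405 CPM), and the epididymal points of those libraries lie below all others.

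Most single members followed the sum. In 165 of 238 members (69.3%) both HFD 4 and HFD 8 were above all other 14 libraries, against 18.2% of the other 14718 genes at the same level rule, 54.4% of the other testis clones and 13.5% of clones of other series. The median member stood at 7.45 times the median of the other 14 libraries in HFD 4 and at 7.02 times in HFD 8, where the median of the other genes stood at 0.726 and 0.867. At least 4-fold in both libraries was reached by 147 members, 17 were under 2-fold in both, and 4 were below all other 14 libraries in both. Since the 2 libraries were singled out for their levels of testis transcripts, these counts describe them and carry no test. They were made from separate males of 1 diet, and no deposited label sets them apart from the other 6.

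The 8 members with the highest mean CPM together made up 20.2% of the member sum. By length, 1700012A03Rik had 212 CPM per kb of exon and was followed among these by 1700027A15Rik (155), 1700013G24Rik (139), 1700029F12Rik (138) and 1700009N14Rik (135). The remaining 3 had 85.7 (1700123L14Rik), 67.2 (Cfap206) and 61.8 CPM per kb (1700010I14Rik).

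1700012A03Rik (chr6:32050246-32058921, plus strand, 3 exons) codes for a protein of 130 amino acids. It had 395 CPM in HFD 4 and 850 CPM in HFD 8. The other 6 HFD libraries ran from 99.1 to 214 CPM (median 112) and the 8 CD libraries from 56.2 to 365 CPM (median 157). The 2 libraries were above all others, and without them the diets overlapped.

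Cfap206, listed as 1700003M02Rik (chr4:34688559-34730206, minus strand), codes for an axonemal protein needed for sperm motility. It had 806 CPM in HFD 4 and 551 CPM in HFD 8. The other HFD libraries ran from 49.1 to 121 CPM (median 84.0) and the CD libraries from 38.4 to 183 CPM (median 76.0). Both libraries were above the rest, with HFD 4 the higher.

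Coding genes 1700009N14Rik (chr4:39450295-39451776, plus strand), 1700029F12Rik (chr13:97021864-97034362, minus strand), 1700013G24Rik (chr4:137453284-137455461, plus strand) and 1700010I14Rik (chr17:8988333-9011949, plus strand) also had HFD 4 and HFD 8 above the rest. 1700009N14Rik had 580 CPM in HFD 4, 746 CPM in HFD 8 and 40.3 to 191 CPM in CD (median 98.2). 1700029F12Rik had 649, 563 and 44.0 to 147 CPM in CD (median 85.3). 1700013G24Rik had 742, 625 and 20.04 to 160 CPM in CD (median 58.2), and 1700010I14Rik had 718, 382 and 31.1 to 151 CPM in CD (median 70.8). In each of the 4, the 6 other HFD libraries lay between 24.0 and 181 CPM and overlapped CD.

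1700123L14Rik (chr6:96164497-96166243, minus strand) is a single-exon gene that RefSeq calls a transcribed pseudogene and GENCODE a coding gene. It had 797 CPM in HFD 4 and 504 CPM in HFD 8. CD libraries ran from 15.2 to 186 CPM (median 52.1), and the other HFD libraries from 35.7 to 115 CPM lay within that range. Reads of a pseudogene may be shared with its parent gene, so this level is uncertain.

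1700027A15Rik (chr1:72984844-73025507, plus strand) is a long noncoding RNA whose exons overlap Tnp1, the transition protein that replaces histones in spermatids, on the other strand. Its level was 226 CPM in HFD 4 and 1201 CPM in HFD 8, with 54.4 to 345 CPM in the other HFD libraries (median 103) and 33.1 to 360 CPM in CD (median 112). HFD 8 was above all others and HFD 4 was not. Tnp1 itself had 688 CPM in HFD 4, 6155 CPM in HFD 8 and 66.1 to 619 CPM elsewhere. Over the 14 other libraries the 2 genes varied together (Pearson r = 0.91, Spearman rho = 0.89, permutation p = 1e-05 for each, the smallest that 100000 permutations can give, and 5e-05 after adjustment over 5 such pairs). Without the 2 libraries farthest from the median r was 0.88. Whether the counting used strand is not known here, and reads of 1 gene may have been counted for the other. The same holds for 1700071M16Rik with Pla2g7, 1700094J05Rik with Pcnt, 1700088E04Rik with Polr2f and 1700001C19Rik with AI661453, whose r with their partners ran from -0.42 to 0.58 and did not pass after adjustment.

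Members that now have a known gene's symbol can be read by role. Of the 7 Cfap genes, 6 had both HFD 4 and HFD 8 above the other 14. Cfap157 (1700019L03Rik), needed for forming the sperm tail, had 89.2 and 56.2 CPM against 1.06 to 16.1 CPM. Cfap126 (1700009P17Rik) had 237 and 105 CPM against 8.86 to 62.4 CPM. Cfap161 (1700026D08Rik), whose RFX window is printed above, had 135 and 123 CPM against 8.86 to 53.6 CPM. The exception was Cfap77 (1700101E01Rik), with 5.84 and 1.31 CPM against 0 to 4.94 CPM.

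Of the other renamed members, 4 are given as examples. Llcfc1 (1700034O15Rik), required for fusion of sperm and egg, had 339 CPM in HFD 4, 147 CPM in HFD 8 and 8.41 to 71.0 CPM in the rest. Spaca9 (1700026L06Rik), named for its link to the sperm acrosome, had 226 and 303 CPM against 10.02 to 73.2 CPM. The histone variants H2bl1 (1700024P04Rik) and H2ap (1700054O13Rik) had 155 and 347 CPM against 2.54 to 80.2 CPM, and 55.2 and 129 CPM against 2.12 to 24.6 CPM. All 4 were above the rest in both libraries.

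Some renamed members with known roles outside the germ line stood apart less, or in the opposite direction, and others did not. Armt1 (1700052N19Rik), a protein methyltransferase, had 86.6 CPM in HFD 4 and 78.4 CPM in HFD 8 against 9.54 to 28.9 CPM, above all others. Oip5os1 (1700020I14Rik) had 62.1 CPM in HFD 4 and 43.1 CPM in HFD 8 against 25.8 to 47.5 CPM, so HFD 8 was within the range of the rest. Rubcn (1700021K19Rik), a regulator of autophagy, had 56.3 and 57.5 CPM against 32.4 to 59.3 CPM and did not stand apart. Fyb2 (1700024P16Rik), an adaptor protein known from T cells, had 7.44 and 6.21 CPM against 11.1 to 36.2 CPM and was below all others in both libraries. The other 3 members below the rest in both were 1700018G05Rik, 1700113A16Rik and 1700120C14Rik, named here after their values were seen, with 0 to 3.19 CPM in HFD 4 and 0.654 to 7.52 CPM in HFD 8.

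Ranked by the lower of the 2 ratios, the members furthest above the rest were 1700080N15Rik, 1700030O20Rik, 1700016G22Rik, 1700066B17Rik and 1700092E19Rik. 1700080N15Rik, a long noncoding RNA at chr2:4132063-4141141 on the minus strand, had 36.7 CPM in HFD 4 and 27.8 CPM in HFD 8, where CD had 0 to 3.51 CPM (median 0.863). 1700030O20Rik, another one, had 36.1 and 40.2 CPM where CD had 0 to 5.28 CPM (median 1.41). Both lay above all other libraries, and so did the remaining 3, with 11.8 to 20.9 CPM in the 2 libraries. 1700016G22Rik and 1700066B17Rik reached 1 CPM in 8 libraries, and 1700080N15Rik and 1700092E19Rik in 9, with HFD 4 and HFD 8 among them. These members passed the level rule only because HFD 4 and HFD 8 counted towards it. Their place in this ranking therefore follows in part from the rule. With 1 count worth up to 0.531 CPM, the low side of these ratios rests on few reads. At the other end were members with 0 counts in HFD 4, the library with the fewest gene counts. The first 5 of these by name were 1700001D01Rik, 1700007J10Rik, 1700012D14Rik, 1700018G05Rik and Nat8f4 (1700019G17Rik), of which Nat8f4 had 19.3 CPM and 1700007J10Rik 14.1 CPM in HFD 8.

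**Figure D2:**
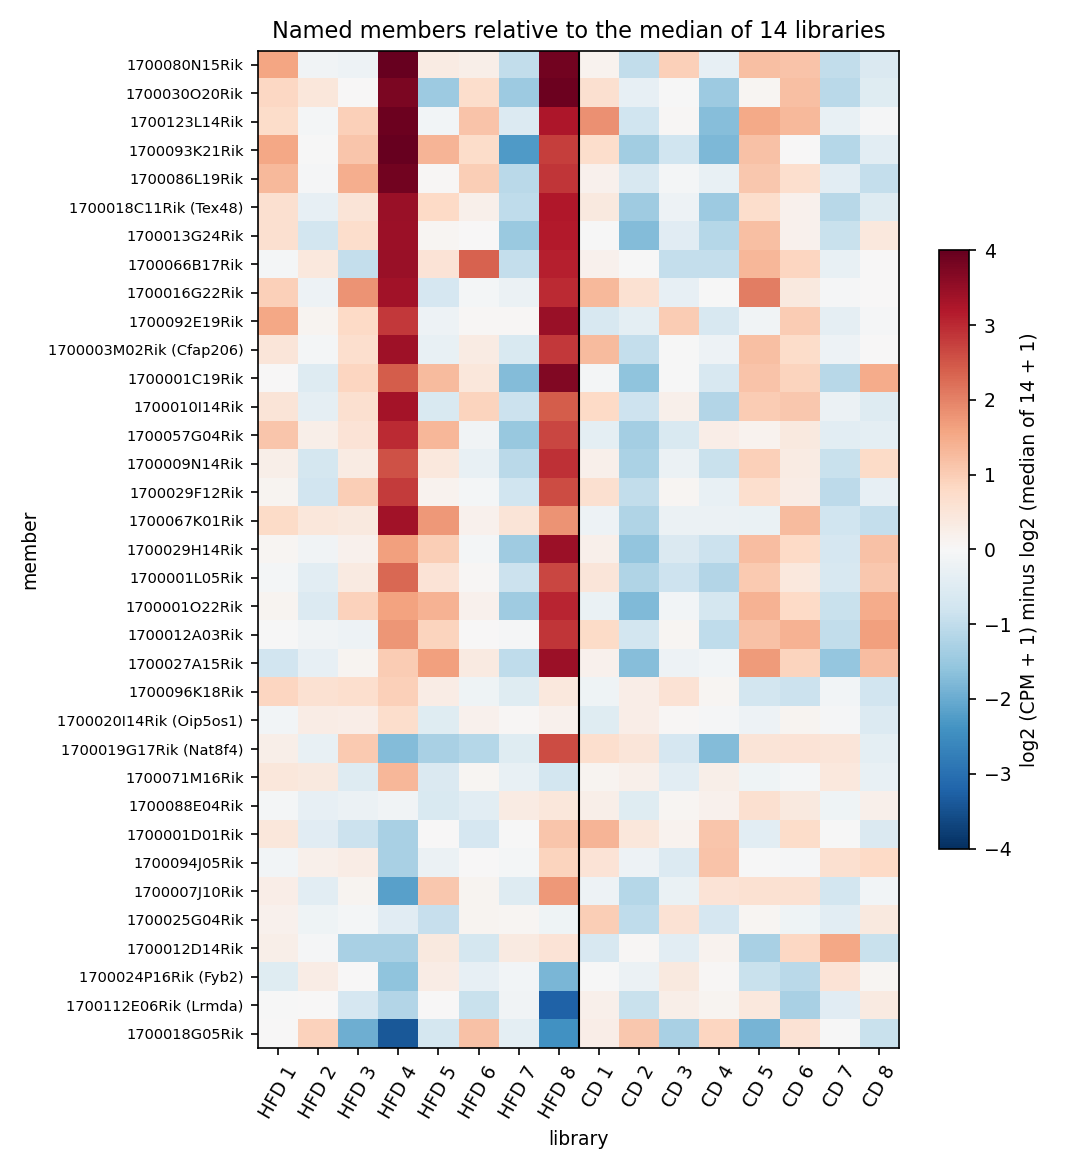
Each named member (rows) in each library (columns), as log2(CPM + 1) minus log2(median of the 14 libraries other than HFD 4 and HFD 8, + 1); red is above that median and blue below, and the vertical line parts the diets. The columns HFD 4 and HFD 8 are red in most rows, including 1700080N15Rik (36.7 and 27.8 CPM), and blue in Fyb2 (7.44 and 6.21 CPM).

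HFD 4 and HFD 8 were alike in their sums and unlike in single members. At least a 2-fold lead on the CPM + 1 scale was held by HFD 4 in 61 members and by HFD 8 in 56, and 121 lay within 2-fold. Llcfc1 was among the first and H2bl1 among the second. The most uneven, named after their values were seen, were 1700092C10Rik, at 98.3 CPM in HFD 4 against 4.25 CPM in HFD 8, and 1700034G24Rik, at 0.531 against 41.5 CPM. Each value is from 1 library, so these differences have no replicate check.

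**Figure D3:**
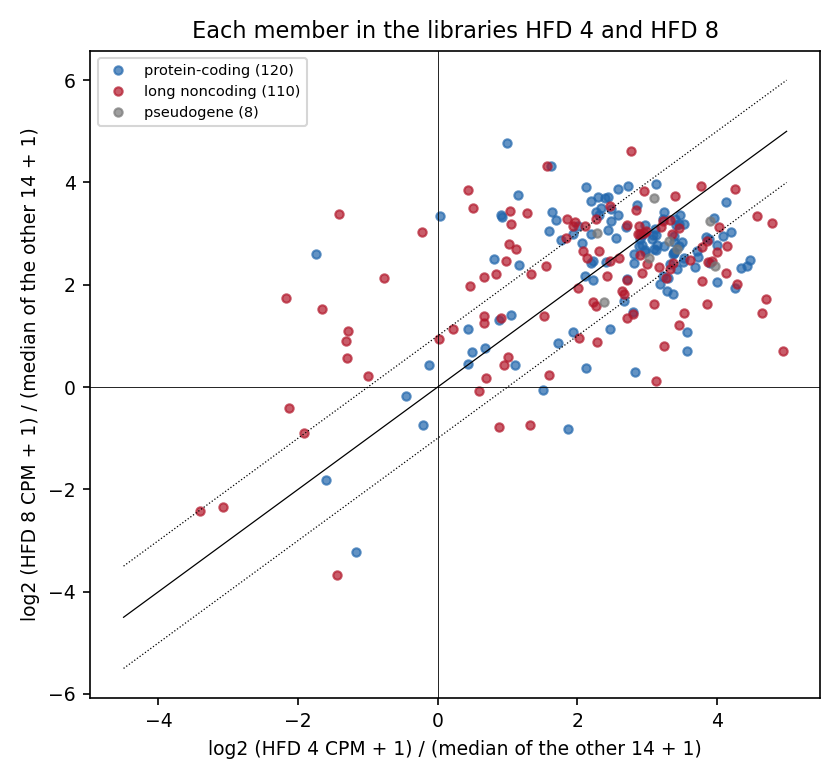
Each of the 238 members as 1 point: log2 ratio of CPM + 1 to the median of the other 14 libraries in HFD 4 (horizontal) and HFD 8 (vertical), coloured by gene class; the solid line marks equal ratios and the dotted lines a 2-fold difference. Most points lie in the upper right, 61 lie below the lower dotted line or on it and 56 above the upper one or on it.

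Covariation with marker transcripts was not used by the rule and was tested over the other 14 libraries alone, since HFD 4 and HFD 8 form a separate cluster. Of 238 members, 99 varied with the summed late spermatid markers in the same direction and 0 in the opposite one (permutation p adjusted by Benjamini-Hochberg over 476 relations, threshold 0.05). The median r over members was 0.59 (rho 0.56), and 0.60 when each library was taken as its deviation from its diet's mean. All 99 had a within-diet r above 0.5, and 94 kept r above 0.5 without CD 2 and CD 5, the libraries farthest from the median of the list sum. Since the 99 were picked by their r over the same libraries, both counts describe them and are no separate test. An r above 0.7 was found for 72 members (30.3%) and for 5.56% of 14604 other genes. How many of those other genes would pass the permutation test was not computed, for this list or for the meiotic one below.

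Among the 5 members with the highest r with the late spermatid sum, 1700009N14Rik led with r = 0.98 (rho = 0.96, permutation p = 1e-05, adjusted p = 0.000317), and 0.97 without the 2 farthest libraries. 1700029H14Rik (r = 0.96), 1700001O22Rik (0.96), 1700001L05Rik (0.96) and 1700001C19Rik (0.95) had the same permutation p of 1e-05, the smallest that the permutations can give. Of these, 1700001L05Rik is a long noncoding RNA and the other 4 are coding genes. In the 14 libraries 1700029H14Rik ran from 14.1 to 105 CPM, so its level moved over a wide range within this set.

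The meiotic marker list (33 genes in the table, such as Sycp3 of the synaptonemal complex and Ddx4 of germ cells), added after the data were seen, gave 139 members with a positive relation and 0 with a negative one, adjusted over the members. The median r was 0.65, 93 members (39.1%) had r above 0.7 against 7.91% of the other genes, and 125 of the 139 kept r above 0.5 without CD 4 and HFD 7. The late spermatid and meiotic sums themselves varied together (r = 0.88, rho = 0.82), so the lists do not part the members cleanly. In the 61 members led by HFD 4 the median r was 0.47 with the late spermatid sum and 0.60 with the meiotic sum. In the 56 led by HFD 8 it was 0.70 and 0.62. These are descriptions across members that share the same libraries. Cfap206 and 1700010I14Rik had r = 0.86 and 0.85 with the meiotic sum and 0.69 and 0.59 with the late spermatid sum.

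With the epididymal sum 23 members varied in the opposite direction and 1 in the same direction. The latter was 1700096K18Rik (r = 0.65, adjusted permutation p = 0.0463), a long noncoding RNA of 1.39 to 6.93 CPM in these 14 libraries. By rank its rho was 0.36 (permutation p = 0.201), and without CD 6 and CD 8 its r was 0.37. This relation was therefore weaker by rank and without those libraries. Over all members the median r was -0.36, and -0.42 without CD 6 and CD 8, where the 14604 other genes had a median of 0.02 over the 14 libraries. An r above 0.7 was found for 0 members and for 5.14% of the other genes. How many of the other genes would pass was not computed. The late spermatid and epididymal sums were opposed in the same libraries (r = -0.76, rho = -0.67, permutation p = 0.00148). Other members with the highest r were Fyb2, 1700018G05Rik, 1700071M16Rik and Oip5os1, with r from 0.40 to 0.47 and adjusted permutation p from 0.18 to 0.259. Oip5os1 had the lowest r of all members with the late spermatid sum (-0.56, adjusted p = 0.101), which did not pass.

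Other properties of the 14 libraries moved with the late spermatid sum. Its r was 0.74 with summed leukocyte markers (permutation p adjusted over 5 measures 0.0128, and r = 0.60 without the 2 farthest libraries) and 0.64 with markers of stroma, endothelium and muscle (adjusted p 0.0369). With total gene counts it was -0.45, with the share of the ribosomal RNA precursor Rn45s 0.43 and with the share of reads in no gene 0.11, and none of these passed. Their part in the members' covariation was not tested.

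**Figure D4:**
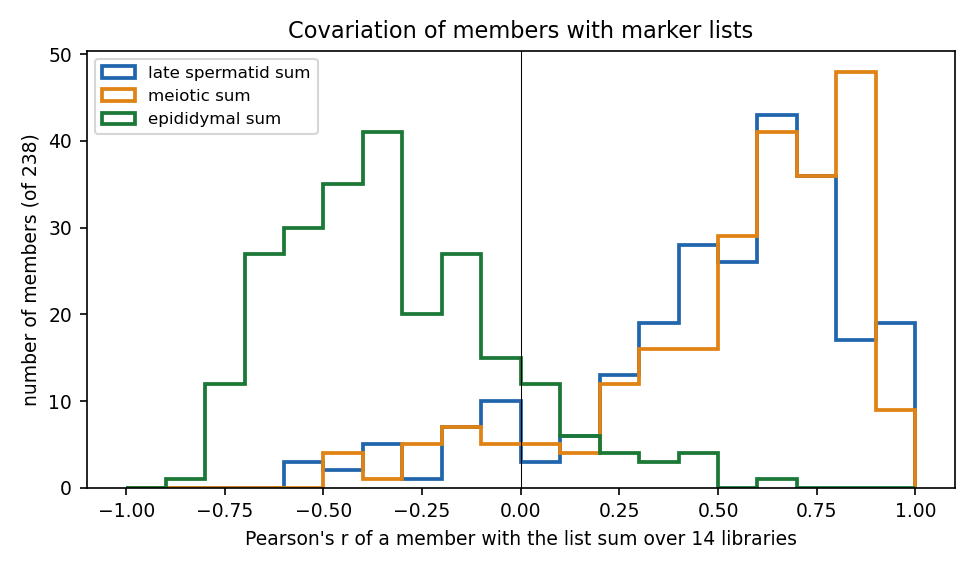
Number of members (of 238) by Pearson's r of log2(CPM + 1) with the summed late spermatid, meiotic and epididymal markers over 14 libraries, in bins of 0.1. The late spermatid and meiotic curves lie mostly to the right of 0 (medians 0.59 and 0.65) and the epididymal curve mostly to the left (median -0.36).

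Coding members and long noncoding members differed in these descriptions. The coding ones had a median r of 0.67 with the late spermatid sum and 66 of 120 passed, and of the long noncoding ones 29 of 110 passed with a median r of 0.45. Mean CPM per kb of exon had a median of 16.0 in the coding and 6.31 in the long noncoding members, and the second class was the shorter one, so it was also measured with fewer reads. Both HFD 4 and HFD 8 were above the rest in 95 of the 120 and in 63 of the 110. No test was made between the classes.

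No member passed the test between the diets. Of 183 members that passed the expression filter, 0 passed the test between 8 HFD and 8 CD libraries, and over all 13149 genes tested 0% were called (edgeR's quasi-likelihood test, Benjamini-Hochberg adjusted p under 0.05). The smallest adjusted p of a member was 0.434, and DESeq2 and limma-voom also called 0 members. At an unadjusted p under 0.05, 98 members were higher in HFD, against 10.2% of all genes, and 0 were lower, against 1.1%. Of the 183, 171 had a positive log2 fold change and 12 a negative one, with a median of 1.35 beside -0.0042 over all genes. No member had diets that did not overlap, against 0.00761% of all genes. The 3 clones left out by name are among those of the series with the smallest diet p, so the members are not a full list of it.

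Without HFD 4 and HFD 8 the same fit gave 98 positive and 86 negative values among 184 members, with a median of 0.03. Then 0% of 13448 genes were called at the adjusted threshold, and 1 member, 1700067K01Rik, had an unadjusted p under 0.05 with a higher value in HFD, against 0.982% of all genes. On the lower side there was no member, against 1.19% of all genes. Of the 183 members in both fits, 172 came closer to 0. Leaving out HFD 4 alone gave a median of 0.87 with 23 of 183 members at an unadjusted p under 0.05, against 516 of all 13295 genes tested. Leaving out HFD 8 alone gave a median of 0.90 with 43 of 183 members, against 689 of all 13268 genes tested.

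The members with the smallest unadjusted p, all with an adjusted p of 0.434, were 1700093K21Rik, 1700067K01Rik, 1700057G04Rik, Tex48 and 1700086L19Rik. 1700093K21Rik (chr11:23516203-23521155, minus strand) had 542 CPM in HFD 4, 229 CPM in HFD 8 and 6.01 to 98.7 CPM in the other HFD libraries (median 63.5), with 8.75 to 75.05 CPM in CD (median 21.5). The diets overlapped, and the log2 fold change was 2.36 ± 0.69 (SE) over 16 libraries and 0.99 ± 0.53 without those 2. 1700067K01Rik had 31.9 and 10.1 CPM, 2.60 to 9.56 CPM in the other HFD libraries (median 3.42) and 0.385 to 6.67 CPM in CD (median 1.65). Its log2 fold change was 2.24 ± 0.66 over 16 libraries and 1.23 ± 0.57 without the 2, where the adjusted p was 0.9997. Tex48 (1700018C11Rik), a testis-expressed gene, had 225 and 186 CPM, 9.19 to 34.9 CPM in the other HFD libraries and 6.49 to 32.1 CPM in CD.

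Among members lower in HFD, Lrmda (1700112E06Rik), a gene of melanocyte differentiation, had the smallest p. It had 5.84 CPM in HFD 4, 0.654 CPM in HFD 8, 7.28 to 14.7 CPM in the other HFD libraries (median 13.7) and 5.28 to 19.7 CPM in CD (median 16.3). The diets overlapped and the log2 fold change was -0.47 ± 0.42 (adjusted p 0.716). 1700088E04Rik, 1700094J05Rik, 1700025G04Rik and Fyb2 followed with log2 fold changes of -0.23, -0.36, -0.21 and -0.25 and did not pass either.

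**Figure D5:**
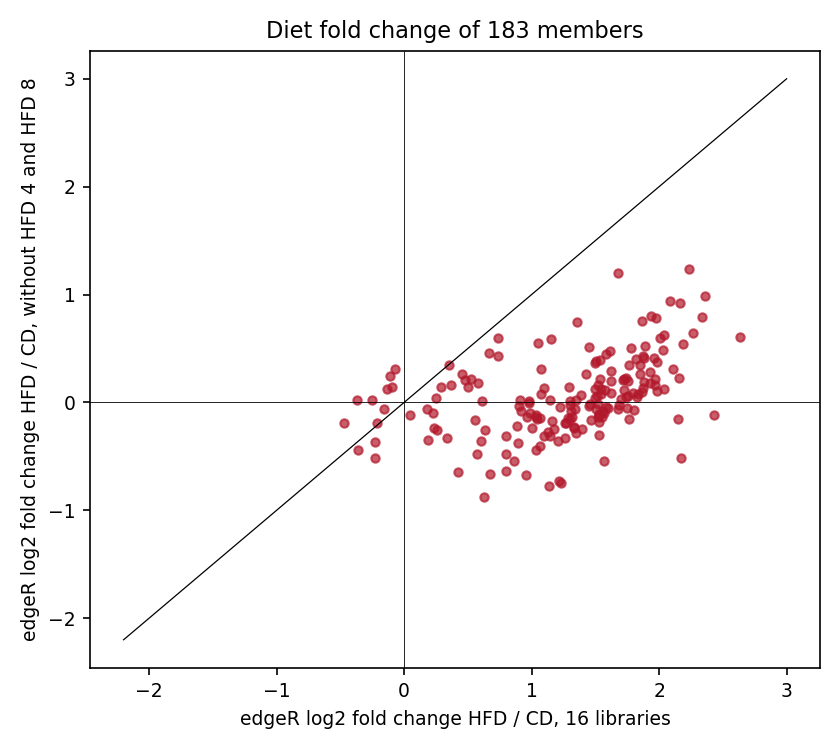
Diet log2 fold change (HFD over CD, edgeR) of each of 183 members over 16 libraries (horizontal) and without HFD 4 and HFD 8 (vertical); the slanted line marks equal values. Points run from -0.47 to 2.63 on the horizontal axis and from -0.87 to 1.23 on the vertical one, and 172 of them are closer to 0 on the second.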

How the data were processed

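RNA-seq of sperm was analysed in 16 libraries, 8 per diet. The file the authors deposited gives unnormalised read counts, with 1 row per gene symbol and 1 column per library. The mm10 build, STAR, DESeq2 1.0.19 and HTSeq 1.0.0 are named, without roles, in the submitters' processing notes. Which annotation and strand setting the counting used is not given here. The labels name no molecular identifier, so amplified copies cannot be told from separate molecules. The 5 summary rows of the counting program stayed out of library sizes and tests.

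CPM are counts scaled to a library's gene total. Diets were compared with edgeR 4.0.16 (TMM factors, its expression filter, robust quasi-likelihood F-test, two-sided), on the whole table, with Benjamini-Hochberg adjustment. The step was tested on simulated data for the comparison of the diets, over 13149 genes: of 50 genes changed at each fold it recovered 5 at 2-fold, 40 at 4-fold, 49 at 8-fold and 50 at 16-fold, with 2 false calls. The changed genes were drawn at random from all genes, and each gene varied independently between libraries. Libraries that differ together in many genes, as HFD 4 and HFD 8 do, were not simulated. These shares therefore do not give the recovery for members. The SE of a log2 fold change was worked back from the F-test, as its absolute value divided by the square root of F. Correlations used log2(CPM + 1) and the log2 of a list's summed CPM, with 100000 permutations in NumPy 2.4.6 and ranks from SciPy 1.17.1. Positions are from GENCODE M21 and promoter windows from RefSeq (GRCm38.p6), matched by symbol. The 56 pairs of libraries of 1 diet had chi-square values per degree of freedom between 13.6 and 187, and none was a copy of another.

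Named members are the 8 with the highest mean CPM, the 5 with the smallest p in each direction of the diet test, the 5 with the largest and the 5 with the smallest ratio of the lower of HFD 4 and HFD 8 to the median of the rest, the 5 with the highest r with each of the late spermatid and epididymal sums, and members whose current symbol names a known gene. Members, lists, tests and these rules were chosen with earlier results of these data known. Alternatives were other tests, scalings and filters, a replicate block, and libraries left out.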

Additional observations from a re-analysis of the deposited data

Results flagged for a closer look

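In each diet group of each named member and of the summed members, the highest and the lowest library were compared with the nearest other library on the log2(CPM + 1) scale. Of 72 groups checked, 2 had a library further from the others than Dixon's critical value for 8 samples allows, and chance alone gives such a library in about 1 of 20 groups. CD 6 was the highest CD library for 1700067K01Rik, with 6.67 CPM where the next had 1.74 CPM. HFD 8 was the lowest HFD library for Lrmda (1700112E06Rik), with 0.654 CPM where the next, HFD 4, had 5.84 CPM. Where both HFD 4 and HFD 8 are far above the others, each is the other's neighbour, so this comparison does not single either out.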

How the results depend on the processing

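The count of members called between the diets was 0 under every alternative run (other tests, scalings and filters, the replicate block, and each library left out). Over all genes DESeq2 called 1 gene, Apoh, which is no member. The members' median log2 fold change moved from 1.35 to 0.28 with limma-voom and quality weights and to 0.0259 without HFD 4 and HFD 8, where 98 members were positive; with 1 library left out it ran from 0.87 to 1.63. Members at an unadjusted p under 0.05 fell from 98 to 17 with limma-voom and to 1 without HFD 4 and HFD 8, and ran from 23 (without HFD 4) to 130 (without HFD 7) with 1 library left out. Over all genes tested, such genes fell from 1482 to 500 with limma-voom and to 292 without HFD 4 and HFD 8. With 1 library left out they ran from 516 (without HFD 4) to 2020 (without HFD 7). Pairing of the libraries by the replicate numbers in the titles was not shown, and with 1 pair per number this check cannot exclude it. The correlation of same-numbered libraries ran from -0.40 to 0.61 and exceeded 0.1 in 4 of 8 pairs. Of the libraries, 2 HFD and 2 CD ones correlated best with their own number. With the replicate block 7 members had an unadjusted p under 0.05, against 314 of all 13149 genes tested. The members' median was then 0.72 and 0 were called. Without HFD 4 and HFD 8 the log2 fold change changed sign in 13 of the 28 members that were named by level, diet p, ratio or r and were in both fits: 1700027A15Rik (-0.14), 1700012A03Rik (-0.48), 1700009N14Rik (-0.14), Cfap206 (1700003M02Rik, -0.24), 1700123L14Rik (-0.14), 1700010I14Rik (-0.0567), Fyb2 (1700024P16Rik, 0.0253), 1700029H14Rik (-0.17), 1700001L05Rik (-0.15), 1700001C19Rik (-0.0173), 1700071M16Rik (-0.0618), Nat8f4 (1700019G17Rik, -0.36) and 1700018G05Rik (0.0239). In 1700012A03Rik it also did so with limma-voom (-0.0242) and without HFD 8 (-0.0473), and with 1 library left out it ran from -0.0473 to 0.891. Over all 16 libraries 209 members varied with the late spermatid sum and 206 with the epididymal sum, in place of 99 and 24. Of the 209, 203 varied in the same direction and 6 in the opposite one, and of the 206, 7 and 199. HFD 4 and HFD 8 stand apart in both sums and in most members, so these counts can follow from those 2 libraries alone. The 16-library counts are therefore no test of covariation, and no share of other genes stands beside them. With TMM-scaled CPM 60 members varied with the epididymal sum, 1 in the same direction and 59 in the opposite one. The cause of this change was not tested. A minimum of 0.5 or 2 CPM in place of 1 gives 268 or 201 members. With 1 count worth up to 0.531 CPM, values under a few CPM are limited by depth.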

Other observations

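Starts of 25 of 234 members (10.7%) lay within 1 kb of the start of a gene that runs the other way, against 14.9% of the other genes. 1700003E16Rik starts 7 bases from Wdr54 and 1700030K09Rik 10 bases from Calr3, a calreticulin made in the testis; exons of the latter member overlap Cherp on the other strand. 1700003E16Rik had 146 CPM in HFD 4 and 144 CPM in HFD 8 against 7.32 to 40.8 CPM in the other 14 libraries, and 1700030K09Rik had 15.9 and 21.9 CPM against 5.01 to 12.1 CPM. Exons overlapped another gene's in 67 members (28.6%), against 36.6% of the other genes. Of these members 61 (26.1% of the 234) overlapped a gene on the other strand, against 31.4% of the other genes.

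Members with a GENCODE position lay on every chromosome but Y, with 17 each on chromosomes 5 and 6 and 7 on X. Ms4a20 (1700017D01Rik) and Ms4a19 (1700025F22Rik), of a family of membrane-spanning proteins, lie 8788 bases apart on chromosome 19 on the same strand. Ms4a20 had 221 CPM in HFD 4 and 250 CPM in HFD 8 against 9.19 to 56.4 CPM in the other 14 libraries, and Ms4a19 had 129 and 67.6 CPM against 0.847 to 28.3 CPM.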
